A study of Mus musculus with 4 samples.

Results

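The polycystins and Bicc1 are the genes through which the mouse node is thought to read the leftward fluid flow that its motile cilia drive. PKD1L1 and PKD2 form a receptor-channel complex in the immotile cilia of the perinodal crown cells, and PKD1 is the receptor-like partner of PKD2 in kidney epithelium. BICC1 is an RNA-binding protein of the crown cells that, downstream of PKD2, promotes decay of the mRNA of the Nodal antagonist DAND5 on the left side. PKD2L2 is a relative of PKD2 known mainly from testis. The 5 genes Pkd1, Pkd1l1, Pkd2, Pkd2l2 and Bicc1 were taken by name and found on the array through the gene name or accession of each probe. They had 11 probes among 41174 on the array, which covered 27591 gene names.

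The samples were node-containing distal pieces of mouse embryos at the early headfold stage (about E7.75), on a mixed Sv129/CD-1 background. The homozygous group (Noto GFP/GFP) carried a GFP insertion on both alleles of Noto, which encodes a homeodomain transcription factor of the node and notochord. The heterozygous group (Noto GFP/+) carried it on 1 allele, so every embryo had at least 1 GFP allele and no wild-type group was part of the comparison. Each genotype was 1 RNA pool of 120 to 150 pieces, hybridised with the other on 2 Agilent 2-colour arrays, with the homozygote in Cy5 on array 1 and in Cy3 on array 2. The 4 samples are thus a technical dye swap of 1 pair of pools, and no difference between genotypes has a biological replicate check or a test. The distal piece holds many cell types besides crown cells, and in such tissue fewer cells of a type and less RNA per cell cannot be told apart.

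On the arrays 64.0% to 81.5% of gene spots were well above background. Probes count as measured if, on array 1 and again on array 2, the spot passed the scanner software's background flag (well above background) for the homozygote, the heterozygote or both, which left 27788 probes of 18607 genes. A ratio is the log2 of homozygote over heterozygote, as the mean of the 2 arrays ± their technical SD (n = 2 arrays). A probe is called higher or lower where array 1 and array 2 both gave a 1.5-fold or larger ratio (a log2 ratio of 0.58) with one sign. Of the markers of the labelled tissue, all 7 of node and notochord were measured, and none of them was called. Their ratios spread from -0.57 (Foxd4) to 0.33 (T, brachyury). Of the 7, 3 were below 0 on both arrays (Foxd4, Foxj1 and Shh) and 2 were above 0 on both. Foxj1, the regulator of motile ciliogenesis, read -0.52 ± 0.09, and Shh read -0.44 ± 0.07. Foxj1 (-0.59) and Foxd4 (-0.64) were past 1.5-fold on array 1 but not on array 2 (-0.46 and -0.51). Of the markers of neighbouring tissues, Hba-a1 (-1.05 ± 0.18) was the 1 called of 2 measured erythroid markers, and Prl8a2 (1.11 ± 0.03) the 1 called of 4 measured trophoblast and decidua markers. Of those 4, 2 were above 0 on both arrays, and 1, Plet1 (-0.53 ± 0.18), was below 0 on both. By the same rule 2.33% of all measured genes were lower and 0.0591% were higher. None was called of 5 measured markers of visceral endoderm or of 3 of presomitic mesoderm. Their part in the values below was not tested.

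Pkd1, Pkd2 and Bicc1 were measured, by 6 probes in all, while Pkd1l1 and Pkd2l2 had spots well above background on array 1 alone and so were not measured. Of the 6 measured probes 1 was lower in the homozygote, a probe of Pkd2, and 0 were higher. Over all measured probes 2.0% were lower and 0.0864% were higher by the same rule, 2.08% in all. By the brightest measured probe of each gene, 0 of the 3 measured genes were called, against 2.39% of all measured genes. The plot of signals by sample shows the levels of the 11 probes, among them the Pkd2 probe that was lower.

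**Figure D1:**
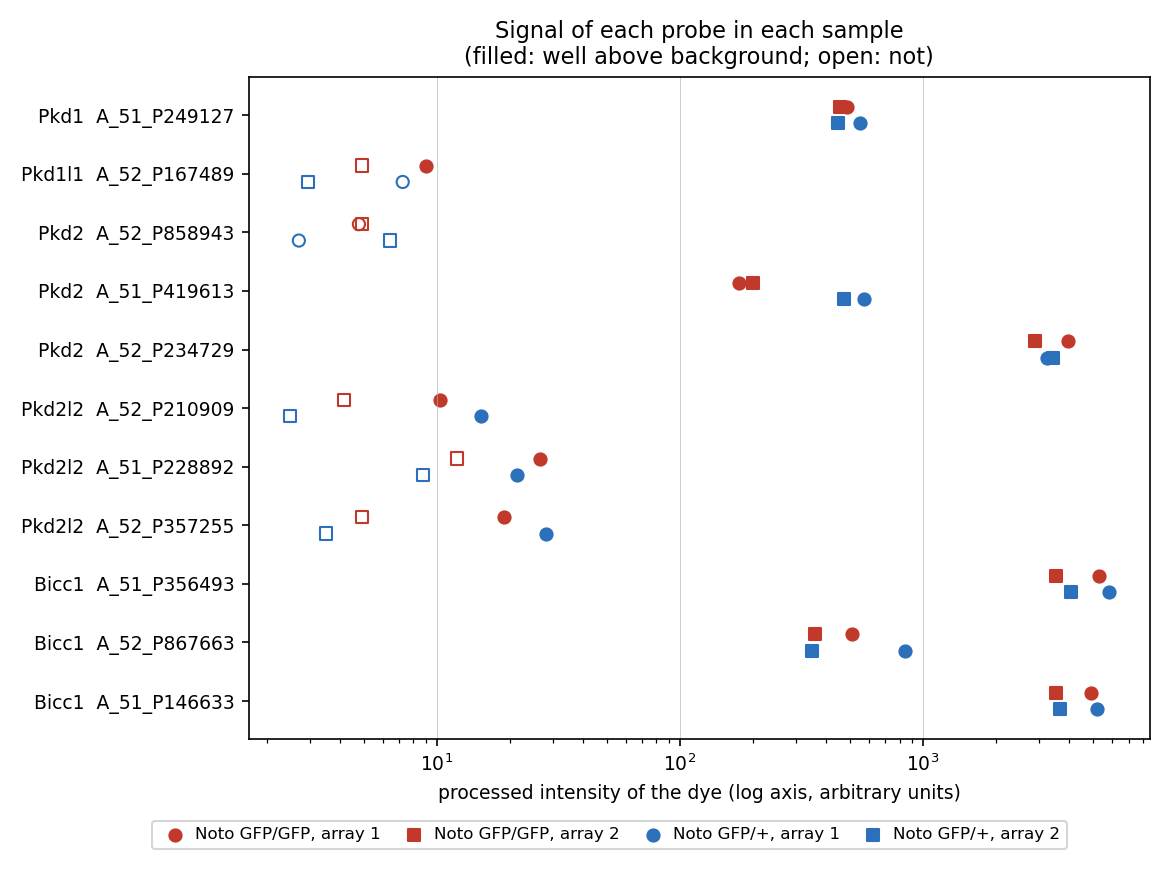
Processed intensity (background-subtracted and dye-normalized by the scanner software, arbitrary units, log axis) of each of the 11 probes in each of the 4 samples, with Noto GFP/GFP drawn above Noto GFP/+; circles are array 1, squares array 2, and open symbols are spots not well above background. The probe A_51_P419613 of Pkd2 has both homozygous samples (175 and 200) left of both heterozygous ones (571 and 472), while Pkd1l1 and Pkd2l2 have all their signals below 30.

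Pkd2 encodes the cation channel of the complex and is required for left-sided Nodal activity. Its 3 probes lie on the plus strand of chromosome 5 (positions on mouse build mm8, from the array files), and they disagreed. Because the value for Pkd2 differs by probe, their sequences are shown, 5′ to 3′ in transcript sense, with the triplets TAA, TAG and TGA in capitals. For the probes in which each of the 3 forward reading frames holds a stop triplet, only the first 30 of 60 bases are given.
A_52_P858943 (chr5:104740614-104740673): gtcatttgtactTAAtcttgTGAgaTAAag
A_51_P419613 (chr5:104743812-104743871): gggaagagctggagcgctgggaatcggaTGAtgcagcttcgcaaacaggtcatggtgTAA
A_52_P234729 (chr5:104745945-104746004): aTAAgttcatatatttttctacttTAGtcc

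The probes A_51_P419613 and A_52_P234729 are both assigned in the files to the RefSeq mRNA NM_008861, and start 2133 bases apart. In A_51_P419613, 2 of the 3 forward frames hold a stop triplet and 1 is open throughout. Its GC content is 55%, against 35% for A_52_P234729 and 26.7% for A_52_P858943. The probe A_52_P858943 is assigned only to the cDNA clone AK021122, and lies 3198 bases upstream of A_51_P419613. No annotation of build mm8 was used here, so exon, intron and untranslated region are not assigned to these positions. The longest run of bases that A_51_P419613 shared with an array probe of another gene was 14, with a probe of Bcr, and for A_52_P234729 it was 13, with a probe of Ppic on the opposite strand. Transcripts outside the array's probes were not searched.

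The probe A_51_P419613 of Pkd2 was the lower one. Its processed intensity was 175 on array 1 and 200 on array 2 in homozygous samples, against 571 and 472 in heterozygous samples. The homozygous samples averaged 188 ± 18 and the heterozygous samples 521 ± 70 (SD, n = 2 arrays each). All 4 spots were well above background. The log2 ratio of this Pkd2 probe was -1.53 on array 1 and -1.18 on array 2, with a mean of -1.36 ± 0.25, that is 2.56-fold higher in the heterozygote. The scanner software's own ratio of the single spot was -1.70 with an error of 0.26 on array 1, and -1.24 with an error of 0.23 on array 2. The sign thus held with the dyes exchanged, and the ratio was several times the software's error on each array. Among all measured probes 0.198% had a ratio as low. Among those within 0.5 log2 units of its brightness, 2.98% were lower by the 1.5-fold rule.

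The brightest Pkd2 probe, A_52_P234729, gave another picture. Its processed intensity was 3929 and 2898 in homozygous samples, against 3223 and 3411 in heterozygous samples, and the genotypes overlapped. The log2 ratio was 0.33 on array 1 and -0.25 on array 2, with a mean of 0.04 ± 0.41. In both cases the Cy5 sample was the brighter one, whichever genotype it held. Ratios with opposite signs on the 2 arrays were seen for 38.9% of measured probes, but an SD as large as that of this Pkd2 probe for 4.48%. The software's own ratios were 0.29 on array 1 and -0.24 on array 2, with an error of 0.21 on each. Both were larger than their error yet opposite in sign, so that error does not cover the difference between the arrays. The third probe, A_52_P858943, was not well above background in any sample, with processed intensities of 4.78 and 4.92 in homozygous samples and 2.70 and 6.39 in heterozygous ones.

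The measured Pkd2 probes differed by 1.40 on the log2 scale, by 1.86 on array 1 and by 0.93 on array 2. Of 4409 genes with exactly 2 measured probes, the median difference was 0.13, and 1 other gene had a difference as large as Pkd2. That gene, named after its value was seen, was the zinc finger gene Zfp473 (1.58). Counting both arrays separately, 12 of these genes (0.272%), Pkd2 included, had probes at least 0.93 apart in one direction on each array. Which probe stands for the gene therefore decides the call. By the brightest probe Pkd2 was not called. By the mean of its measured probes, an alternative added after seeing the data, it read -0.66 (-0.60 on array 1 and -0.72 on array 2) and was called lower. A called probe beside a brightest probe that was not called occurred in 99 of 6418 genes with at least 2 measured probes (1.54%).

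**Figure D2:**
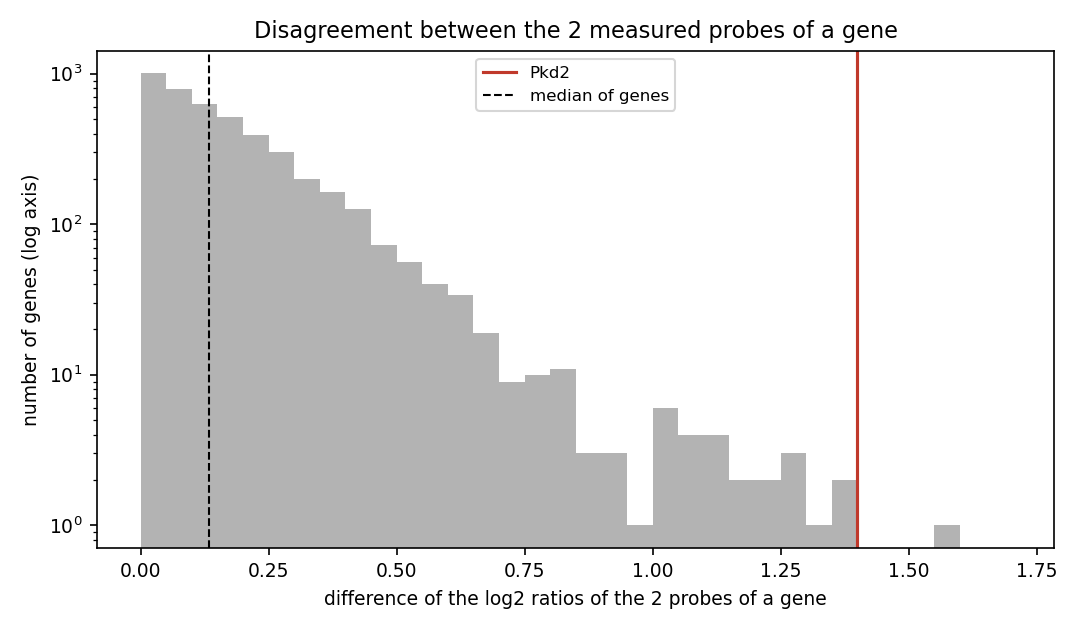
Number of genes (log axis) by the difference between the log2 ratios of their 2 measured probes, for the 4409 genes with exactly 2; the dashed line is the median of 0.13 and the red line is Pkd2 at 1.40. Pkd2 lies at the far right end of the distribution, with 1 gene beyond it.

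Bicc1 had 3 probes, all measured, on the minus strand of chromosome 10. In the order of transcription they are A_51_P356493 (chr10:70320463-70320522, assigned to the mRNA NM_031397), A_52_P867663 (chr10:70319754-70319813, 709 bases downstream of the first, clone AK029601) and A_51_P146633 (chr10:70318347-70318406, 2116 bases downstream, clone AK082289). Both bright probes gave nearly equal signals for the genotypes. For A_51_P146633 of Bicc1 the processed intensity was 4892 and 3527 in homozygous samples, against 5182 and 3669 in heterozygous samples, and its ratio was -0.10 ± 0.09 (-0.16 and -0.03 on the 2 arrays). The other bright Bicc1 probe, A_51_P356493, had 5269 and 3527 in homozygous samples, against 5804 and 4077 in heterozygous samples, with a ratio of -0.15 ± 0.07 (-0.10 and -0.20). On each array the homozygote was slightly below the heterozygote, and the means of both probes turned positive with arrays centred on their median in place of loess (0.13 ± 0.48 for A_51_P146633 and 0.08 ± 0.63 for A_51_P356493). Under that setting the arrays had opposite signs for both probes, and the means moved by more than the median of all measured probes, which was 0.13. The software's own ratios were -0.08 and -0.06 for A_51_P146633, with errors of 0.20, and -0.14 and -0.21 for A_51_P356493, with errors of 0.20. Of these 4 ratios of Bicc1 only the last was as large as its error.

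The dimmer Bicc1 probe, A_52_P867663, had 510 and 360 in homozygous samples, against 840 and 348 in heterozygous samples. Its log2 ratio of -0.64 on array 1 was past 1.5-fold, and that of 0.01 on array 2 was not, which gave a mean of -0.32 ± 0.46 and no call. The arrays thus disagreed on this probe by more than on either bright one. The 3 Bicc1 probes spanned 0.22 in mean ratio, and 57.4% of the 1496 genes with exactly 3 measured probes spanned as much. In mean ratio the Bicc1 probes thus differed no more than those of a typical gene with 3 measured probes. The order of the probes changed between arrays. On array 1 A_52_P867663 was the lowest (-0.64, against -0.10 and -0.16). On array 2 it was the highest (0.01, against -0.20 and -0.03).

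Pkd1 had 1 probe, A_51_P249127 (chr17:24323816-24323875, plus strand, mRNA NM_013630). Its processed intensity was 487 and 453 in homozygous samples, against 551 and 445 in heterozygous samples, and the genotypes overlapped. The log2 ratio of Pkd1 was -0.18 on array 1 and 0.00 on array 2, with a mean of -0.09 ± 0.13, smaller than its technical SD. With median centring Pkd1 read 0.07 ± 0.19.

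Pkd1l1, the crown cell partner of PKD2, had 1 probe on the minus strand of chromosome 11 (A_52_P167489, chr11:8765539-8765598, accession XM_126005). Of its 4 spots only the homozygote on array 1 was well above background, and none was on array 2. The processed intensities of Pkd1l1 were 8.996 and 4.901 in homozygous samples, against 7.230 and 2.953 in heterozygous samples. The heterozygote was not well above background on either array, and no fold is given because the homozygous mean lay below the floor of detection for the heterozygote. A single probe at background does not show that the transcript was absent from crown cells.

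Pkd2l2 had 3 probes on the plus strand of chromosome 18, A_52_P210909 (chr18:34537501-34537560), A_51_P228892 (chr18:34567377-34567436) and A_52_P357255 (chr18:34568680-34568739). Both dyes were well above background on array 1 and neither was on array 2, for each of the 3 probes. On array 1 the processed intensities were 10.3, 26.4 and 18.9 in the homozygous sample, against 15.1, 21.4 and 28.2 in the heterozygous sample, in the order of the probes just named. The homozygote was the lower one for A_52_P210909 and A_52_P357255 and the higher one for A_51_P228892, so the Pkd2l2 probes did not share a direction. A run of 38 bases of A_52_P357255 is the reverse complement of part of a probe for Fam13b, a gene whose probe therefore reads the opposite strand of the same stretch.

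**Figure D3:**
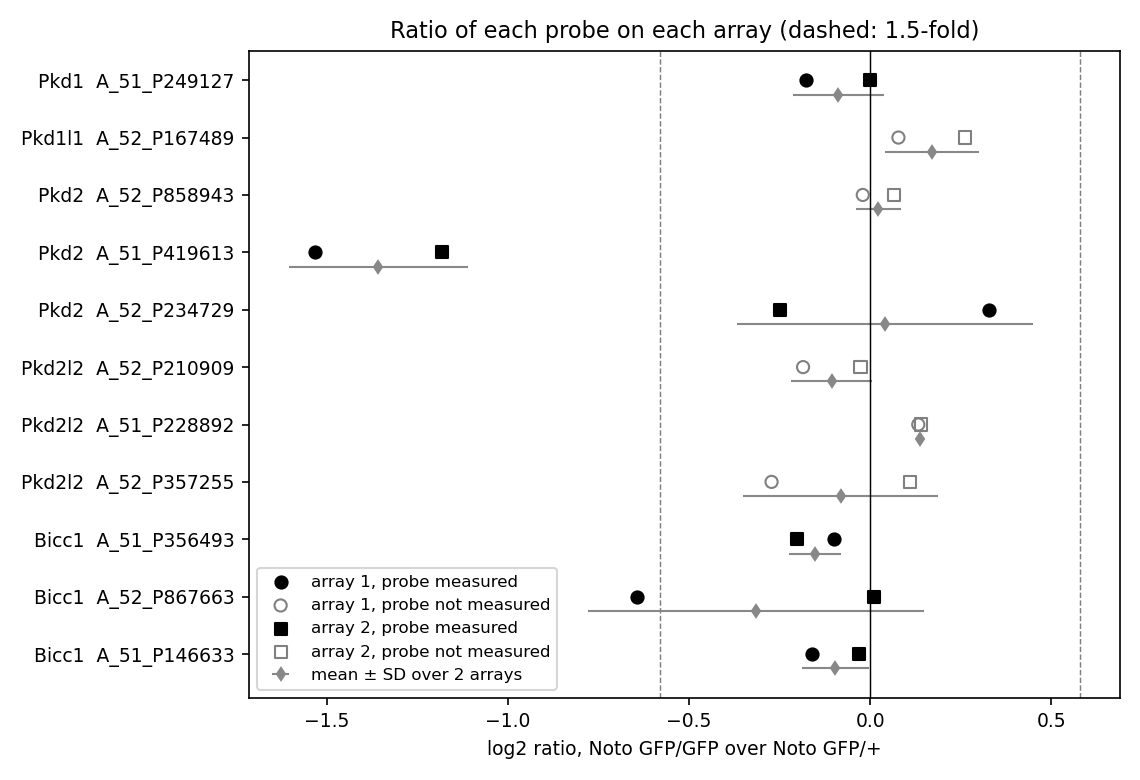
Log2 ratio of Noto GFP/GFP over Noto GFP/+ for each probe on array 1 (circles) and array 2 (squares), with the mean ± SD over the 2 arrays as grey diamonds; dashed lines mark 1.5-fold and open grey symbols are probes that were not measured. Only A_51_P419613 of Pkd2 lies past the line on both arrays, and A_52_P867663 of Bicc1 does so on array 1.

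Set among all measured probes by brightness, A_51_P419613 of Pkd2 lay above 44.0% of them and A_52_P234729 above 76.1%. The Pkd1 probe lay above 51.1%, and the Bicc1 probes above 49.5%, 79.9% and 80.7%. Among probes brighter than the median 0.828% were lower by the 1.5-fold rule, against 2.0% of all measured probes, so lower calls were the less frequent in the range where the bright Pkd2 and Bicc1 probes lie.

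**Figure D4:**
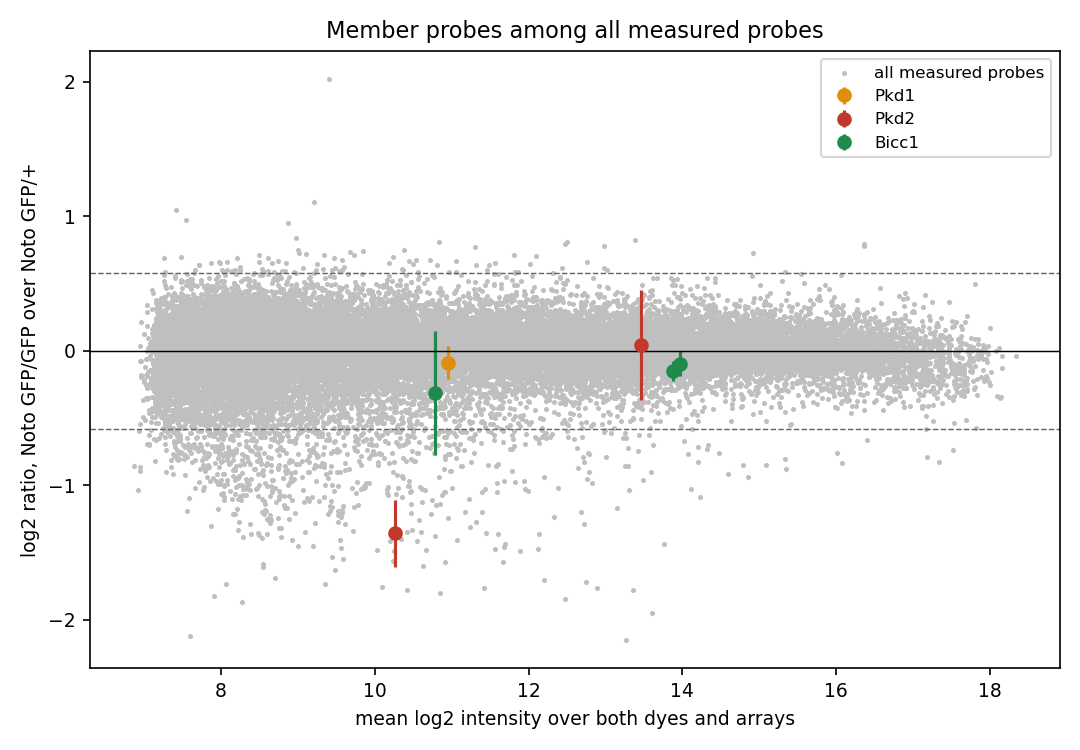
Log2 ratio of Noto GFP/GFP over Noto GFP/+ against mean log2 intensity over both dyes and arrays for all measured probes (grey), with the probes of Pkd1, Pkd2 and Bicc1 coloured (bars are the SD over 2 arrays); dashed lines mark 1.5-fold. The lower Pkd2 probe, at -1.36, lies below nearly all probes of its brightness, while the other measured Pkd1, Pkd2 and Bicc1 probes lie between the dashed lines.

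The genes around this sensor were described by 7 lists of 74 genes, of which 60 were measured. Of these, 1 was higher and 2 were lower, against 0.0591% higher and 2.33% lower among all measured genes, whose median ratio was -0.02. The members and the lists were chosen with earlier results known, so the counts are a description. In 52 of the 60 the mean ratio of the brightest probe lay within 0.3 of 0.

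**Figure D5:**
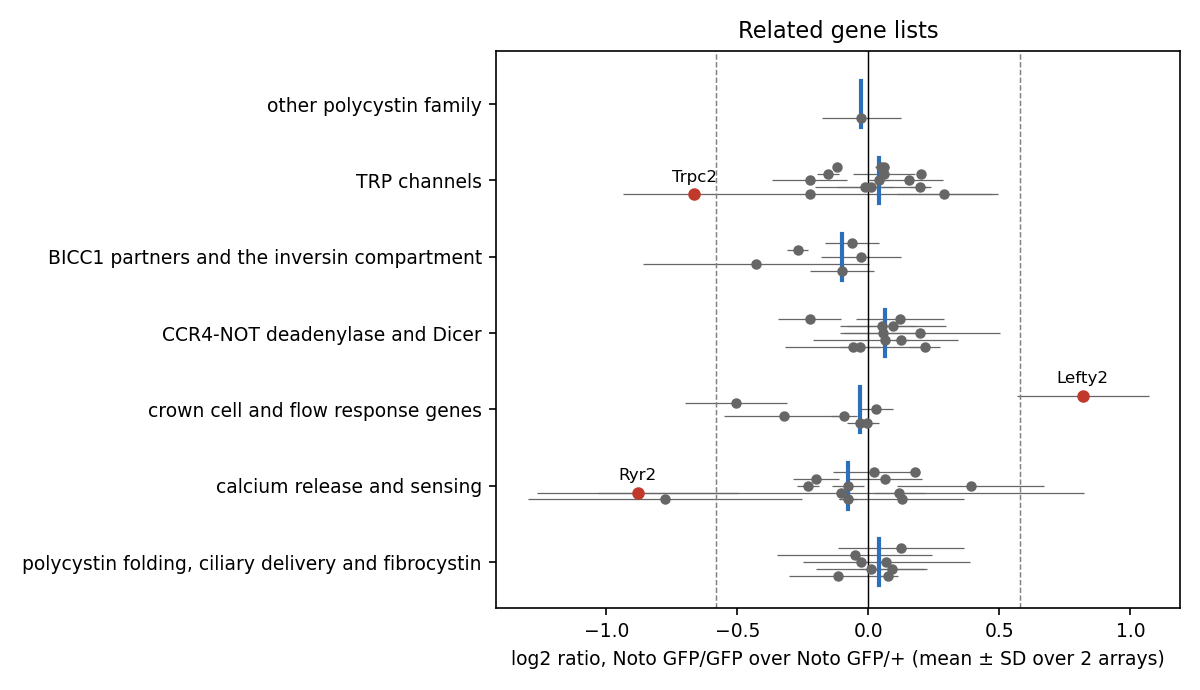
Log2 ratio of Noto GFP/GFP over Noto GFP/+ of each measured gene of the 7 lists (grey, mean ± SD over 2 arrays, brightest measured probe), with the median of each list as a blue bar, called genes in red with their names, and dashed lines at 1.5-fold. The called genes are Trpc2 (-0.66), Lefty2 (0.82) and Ryr2 (-0.88).

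Of the other polycystin family genes, Pkd1l2 was the 1 measured of 4, at -0.03 ± 0.15. Pkd1l3, Pkd2l1 and Pkdrej, the last an egg-jelly-receptor homologue of testis, were not measured. Of the TRP channels, the superfamily to which PKD2 belongs, 15 of 24 on the array were measured and 1 was lower, with a median of 0.04. That was Trpc2, a channel of vomeronasal neurons, whose brightest probe had 823 and 663 in homozygous samples, against 1239 and 1041 in heterozygous samples, a log2 ratio of -0.66 ± 0.01. Like Pkd2, Trpc2 had probes that disagreed, with its 4 measured probes between -0.66 and 0.12. By the brightest probes, Trpm6, a magnesium channel, read 0.29 ± 0.18 and was with Trpc2 the farthest from 0. The 1 measured probe of Trpm6 was dim, with 40.7 and 35.8 in homozygous samples, against 33.4 and 20.1 in heterozygous samples. Trpv4, a PKD2 partner in kidney cilia, read -0.15 ± 0.04, and Trpc1, another PKD2 partner, 0.06 ± 0.02.

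The partners of BICC1 and the inversin compartment of the cilium were all measured, and 0 of 5 were called, with a median of -0.10. Anks6, which encodes an ankyrin and SAM-domain protein that activates the kinase NEK8, had 163 and 63.9 in homozygous samples, against 270 and 67.1 in heterozygous samples. Its ratio of -0.43 ± 0.43 was no larger than the spread over arrays. Nek8 read -0.27 ± 0.04. In 3 of the 5 genes the ratio was below 0 on both arrays and in 0 of 5 above 0 on both, against 34% and 25.7% of all measured genes. With median centring the list's median was 0.02.

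The CCR4-NOT deadenylase, which BICC1 recruits to its target mRNAs, and Dicer1 were measured for 11 of 11 genes, with 0 called and a median of 0.06. By the brightest probes, Cnot3 (-0.22 ± 0.12) and Cnot1 (0.21 ± 0.06), both subunits of the complex, were farthest from 0. Other probes lay farther out. The 3 measured probes of Cnot1 reached 0.71, and those of Cnot10, also 3, lay between -0.75 and 0.26. Of the 7 crown cell and flow response genes 1 was called, with a median of -0.03. Lefty2, a Nodal antagonist and Nodal target, had 3392 and 3509 in homozygous samples, against 2139 and 1782 in heterozygous samples, and was higher (0.82 ± 0.25). Its neighbour Lefty1 read -0.51 ± 0.19. The BICC1 target Dand5 had 180 and 117 in homozygous samples, against 190 and 121 in heterozygous samples, and its ratio of -0.09 ± 0.05 was small beside the 1.5-fold rule. The labels do not separate left from right, so a change on the left side alone could not be read.

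Genes of calcium release and sensing were measured for 13 of 13, with 1 lower and a median of -0.08. Ryr2, the ryanodine receptor of heart muscle, had 87.2 and 29.2 in homozygous samples, against 143 and 87.5 in heterozygous samples, and read -0.88 ± 0.38. Its relative Ryr1, known from skeletal muscle, read -0.78 ± 0.52 (-0.41 on array 1 and -1.15 on array 2) and was not called, while another Ryr1 probe read 0.16. The IP3 receptor genes Itpr1 (0.39 ± 0.28), Itpr2 (0.06 ± 0.14) and Itpr3 (0.18 ± 0.02) were not called. Genes of polycystin folding and ciliary delivery had 0 of 8 called and a median of 0.04. By the brightest probes, Prkcsh (0.13 ± 0.24), a glucosidase II subunit, and Arl13b (-0.12 ± 0.19), a ciliary GTPase, were farthest from 0. A dimmer probe of Ganab read 0.44. Pkhd1, which encodes fibrocystin, was not measured.

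Over the 4 normalized log2 levels (2 genotypes on 2 arrays, each gene centred on its mean), the genes nearest to the brightest Pkd2 probe were Hhex, Hirip3 and Ddx17, at Euclidean distances of 0.030 to 0.034. Each of these 3 read above 0 on array 1 and below 0 on array 2. Nearest to Pkd1 were Ing1, Grik5 and Get1, at 0.011 to 0.013, and nearest to Bicc1 were Fhod1, Rtkn and Cars2, at 0.007 to 0.021. The measure is not selective, since 1493 named genes lay within 0.25 of Pkd2, 3981 within 0.25 of Pkd1 and 4455 within 0.25 of Bicc1.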

How the data were processed

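Per the file headers, the authors read the arrays (design on mouse build mm8) with Agilent Feature Extraction, version 9.5.3.1, which is also in the submitters' processing notes. It gave foreground and background intensity, processed intensity, a log10 ratio of red over green with its error, and 0 or 1 flags for saturation, outliers and a signal well above background (other values, as deposited). The deposited value table holds intensity values floored at 15. The method behind its scaling is not given in the sources used here. The 2 files of an array were identical, so each sample was read from its own dye.

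limma 3.58.1 in R 4.3.3 applied normexp (offset 50) and loess within arrays, with control and outlier spots left out, and array 2 was turned. The step was tested on simulated ratios put only into bright spots, well above background in every sample, so dimmer spots were not covered. Tables and plots were made in Python 3.11.15 (matplotlib 3.10.9, pandas 2.3.3, numpy 2.4.6). Probes were named through accessions and RefSeq symbols (GRCm38.p6, names only) for 33113 probes, and 8061 kept the file's name. Each probe of the 5 genes was 1 spot per array. Lists take the brightest measured probe of a gene. All probes of the 5 genes are named, and of each list the called genes and the 2 farthest from 0. A few more were chosen after their values were seen. Given for their role are Trpv4, Trpc1, Dand5, Itpr1, Itpr2, Itpr3 and the markers. Further probes of Ryr1, Cnot1, Cnot10 and Ganab, which read apart from the brightest probe of the gene, were also chosen in this way. The 3 nearest genes of each measured member are also named. The members and lists were chosen with earlier results of these data known.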

Additional observations from a re-analysis of the deposited data

How the results depend on the processing

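No paired analysis was possible because, beyond the pairing within an array that each ratio already holds, the replicate numbers mark 2 arrays of a single pair of pools. The limits are 1 pool per genotype, 1 spot per probe and array, and dim signals for Pkd1l1 and Pkd2l2. The lower Pkd2 probe stayed lower on each array under no background correction (-1.33), a normexp offset of 10 (-1.41), the software's ratios (-1.47), the value table (-1.47) and median centring (-1.24), and at a 2-fold threshold. On single arrays it read -1.53 and -1.18. The brightest Pkd2 probe was not called under any of them, and read 0.26 ± 0.91 with median centring. Under the 5 alternatives that keep both arrays, 27 ratios of the 6 measured probes moved by less than their SD over arrays and 3 by more. These 3 were Pkd1 (0.072), Bicc1 A_51_P356493 (0.083) and Bicc1 A_51_P146633 (0.13) with median centring, which put the median of all measured probes at 0.13. On single arrays A_52_P867663 of Bicc1 read -0.64 and 0.01, against a mean of -0.32.

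With array 1 alone 2 of the member probes were lower in place of 1, the second being A_52_P867663 of Bicc1, and with array 2 alone 1. The count of member genes called was 1 with the mean of measured probes (Pkd2). Of the list genes, 1 was lower in place of 2 with no background correction (Ryr2 missed the rule, at -0.80), median centring (Trpc2, at -0.48) and the mean of probes (Trpc2, at -0.15). With array 1 alone 5 list genes were lower and 2 were higher, and with array 2 alone 4 were lower and 1 was higher. Of the list medians under alternatives with both arrays, 36 moved by less than their SD over arrays and 12 by more. The cause was not tested, except that a single array needs 1 ratio past the rule, not 2.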
